A study of Mus musculus with 15 samples.

Results

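Cholesterol synthesis, uptake and export were described in mouse cumulus cells through 33 genes, chosen by name for their role in the pathway. Of these, 18 encode enzymes of synthesis and 15 act in regulation, uptake, intracellular transport or export. All 33 had at least 1 probe in the authors' deposited table, under the listed symbol or an older one such as Sc4mol for Msmo1, and together they had 42 probes. A probe was valid if 4 or more of the 5 arrays of every stage detected it well above background. Such a probe was found for 32 of the 33 genes, and for 12680 named genes in the whole series. The exception was Abcg1, a sterol exporter, whose probe was well above background in 5 NC1, 3 C1 and 2 C2 arrays and which was not tested.

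The cells were the somatic cells around the oocyte of B6CBAF1/J mice, measured on 15 arrays, with 5 pools of several mice for each of 3 stages. For NC1, unexpanded complexes were punctured out of large follicles of prepubertal mice aged 3 weeks, whose prophase I oocytes have no or poor developmental competence. For C1, they were taken in the same way from adults aged 8 weeks, whose oocytes at prophase I are competent for development. For C2, expanded complexes with fully competent metaphase II oocytes were flushed from the oviduct of adults of the same age after superovulation with pmsg and hCG, and were dispersed with 300 µg/ml hyaluronidase, whereas NC1 and C1 complexes were stripped by pipetting. Stage and age cannot be told apart between NC1 and C1, nor can stage, hormone treatment, collection site and enzyme between C1 and C2. The question was how each step of the pathway differed between the stages.

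Cells build cholesterol from acetyl-CoA by the mevalonate pathway up to farnesyl diphosphate, which is then committed to sterols, closed into lanosterol and trimmed to cholesterol. Transcription of these enzymes is driven by SREBP proteins, which SCAP escorts to their activation and INSIG proteins hold back when sterols are plentiful. Follicular cells also take up lipoprotein cholesterol, use it for steroid hormones, and are known to pass cholesterol to the oocyte, which makes little of its own.

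Levels are log2 intensities minus the median that the valid probes had on the same array, so a level of 0 is that of the median probe. A gene was called at a Benjamini-Hochberg adjusted p under 0.01 over all 17323 valid probes in limma, and was read from its valid probe with the highest mean. Differences between stages are given ± SE. All 9 granulosa cell markers had valid probes, none was called between NC1 and C1, and 8 were lower at C2 than at C1. The summed level of 6 markers of luteinizing or mural granulosa cells ranged from -0.74 to -0.12 at NC1, from 4.39 to 6.37 at C1 and from 7.41 to 7.97 at C2, and C1 replicate 3 held the lowest C1 value. Of 3 tested markers of this list, 3 were called higher at C1 than at NC1. Only 1 was called higher at C2 than at C1 and none lower. Star, a marker that was not tested, had a mean of 0.92 at C1 and -0.13 at C2, with overlapping arrays. The luteinizing sum thus does not stand for each marker. Of 10 oocyte markers, 9 or 10 were well above background on each NC1 and C1 array, 8 on C2 replicates 1 to 3 and 3 on C2 replicates 4 and 5. The summed level of these oocyte markers ranged from 3.62 to 5.62 at NC1, from 3.64 to 5.30 at C1 and from 3.76 to 4.11 on C2 replicates 1 to 3, and was -0.56 and -0.35 on C2 replicates 4 and 5. That sum does not stand for each marker. Zp3 ranged from 0.97 to 2.01 at C1 and from -3.82 to -3.67 on C2 replicates 1 to 3. The values of H1foo, Gdf9 and Oosp1 overlapped between C1 and C2 replicates 1 to 3. Of 5 tested probes for red blood cell genes, C1 was called below NC1 for 4, and the summed level of the list ranged from 6.20 to 8.78 at NC1, from 3.39 to 5.44 at C1 and from 3.31 to 4.66 at C2. All 5 tested markers of theca and stroma were called lower at C2 than at C1, with summed levels from 3.48 to 5.73 at NC1, from 3.31 to 4.04 at C1 and from -1.02 to -0.46 at C2. The sums of oviduct epithelium ranged from 1.90 to 2.25, 2.09 to 2.72 and 3.32 to 4.20 in the 3 stages, and those of leukocytes from 1.67 to 2.64, 2.09 to 2.44 and 2.61 to 3.07. Of 4 tested oviduct markers, 1 was called higher and 2 lower at C2 than at C1, so that sum does not stand for each marker. Of 4 tested leukocyte markers, 2 were called higher at C2 than at C1 and none lower. These lists move with the stages that are compared below, and their part in the results was not tested. In pooled cells, fewer cells of a type and less RNA per cell cannot be told apart. Arrays lay on 4 slides that each held all 3 stages. Differences within a slide rest on few arrays, and on slide 4 the only C1 array was C1 replicate 3.

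Promoter sequence was looked up in RefSeq (GRCm38.p6), from 250 bases before to 50 after the annotated start, and 26 of the 33 genes matched. There was no entry for Fdps, Fdft1, Sqle, Scarb1, Stard4, Npc1 and Abcg1. The 250 bases before the start are shown for Hmgcs1, Idi1 and Lss, which were higher at C1 than at NC1, and for Mylip, which was lower, to set the letters of genes with opposite changes side by side. Capitals mark the core of the sterol regulatory element, TCACNCCAC, bound by SREBP, and the NF-Y box, CCAAT, which reads ATTGG on the strand shown. All 4 genes lie on the + strand.
Hmgcs1, chr13:119690101-119690350: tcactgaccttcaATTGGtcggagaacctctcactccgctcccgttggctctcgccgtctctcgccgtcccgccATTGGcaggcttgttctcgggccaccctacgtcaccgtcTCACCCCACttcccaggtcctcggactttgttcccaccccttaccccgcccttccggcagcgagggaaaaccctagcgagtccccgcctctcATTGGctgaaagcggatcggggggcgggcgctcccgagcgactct
Idi1, chr13:8885356-8885605: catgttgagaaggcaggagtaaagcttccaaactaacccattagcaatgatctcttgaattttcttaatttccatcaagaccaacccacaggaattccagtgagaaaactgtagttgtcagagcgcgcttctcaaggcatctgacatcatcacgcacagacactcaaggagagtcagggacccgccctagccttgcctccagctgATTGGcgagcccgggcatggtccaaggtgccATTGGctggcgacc
Lss, chr10:76531355-76531604: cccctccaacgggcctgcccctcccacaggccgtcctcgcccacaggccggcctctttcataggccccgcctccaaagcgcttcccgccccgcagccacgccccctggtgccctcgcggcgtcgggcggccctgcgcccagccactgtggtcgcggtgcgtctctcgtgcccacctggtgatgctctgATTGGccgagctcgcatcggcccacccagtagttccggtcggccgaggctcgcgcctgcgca
Mylip, chr13:45389492-45389741: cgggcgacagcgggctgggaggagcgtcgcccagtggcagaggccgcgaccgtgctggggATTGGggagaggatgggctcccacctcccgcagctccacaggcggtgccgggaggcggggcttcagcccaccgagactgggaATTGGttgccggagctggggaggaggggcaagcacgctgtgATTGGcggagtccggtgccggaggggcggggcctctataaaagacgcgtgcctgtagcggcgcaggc

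In these 250 bases Hmgcs1 held 1 sterol regulatory element core, which began 137 bases before the start, and 3 NF-Y boxes, the nearest of which began 45 bases before it. Idi1 held 2 NF-Y boxes, Lss 1 and Mylip 3, and none of these had the core. Over the 300-base windows, searched on both strands, the core was present in 1 of 15 synthesis genes with a window and in 1 of 11 others (Stard3), against 1.44% of 27025 genes of the table. The NF-Y box was present in 14 of 15 synthesis genes (93.3%), in 9 of 11 others (81.8%) and in 41.1% of all genes. The Sp1 box, GGGCGG, was present in 14 of 15 synthesis genes, in 11 of 11 others and in 38.2% of all genes. The E-box, CACGTG, was present in 3 of 15, 3 of 11 and 8.09%. Genes with several windows count once if any window holds the letters. Only these exact letters were searched, so elements written with other letters were not counted. Both groups of genes carried NF-Y and Sp1 letters more often than the table as a whole, a description without a test, and the genes higher at C1 and the gene lower at C1 shown above both held NF-Y boxes.

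From NC1 to C1 the enzymes of cholesterol synthesis rose along most of the pathway. Of 18 synthesis genes, 11 were called higher and none lower. All 18 had a positive difference, in the main analysis and under 6 other scalings or background corrections. The median log2 difference was 1.28, against -0.03 over all valid probes, of which 1.75% were called higher and 0.768% lower. The 5 C1 arrays lay wholly above the 5 NC1 arrays for 14 of the 18 genes, whereas 5.98% of all probes had arrays that did not overlap in either direction. The called genes were Hmgcs1, Mvd, Idi1 and Fdps of the 7 genes of the mevalonate part, and Fdft1, Lss, Tm7sf2, Sc4mol, Hsd17b7, Sc5d and Dhcr7 of the 11 genes of the sterol part. With the slide as a block 11 were called higher and the median was 1.22. Within slides 1 to 4 the median difference was 1.65, 1.43, 1.28 and 0.75, and 18, 18, 17 and 18 of the 18 genes were higher at C1. The values of slide 4 rest on C1 replicate 3, its only C1 array.

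**Figure D1:**
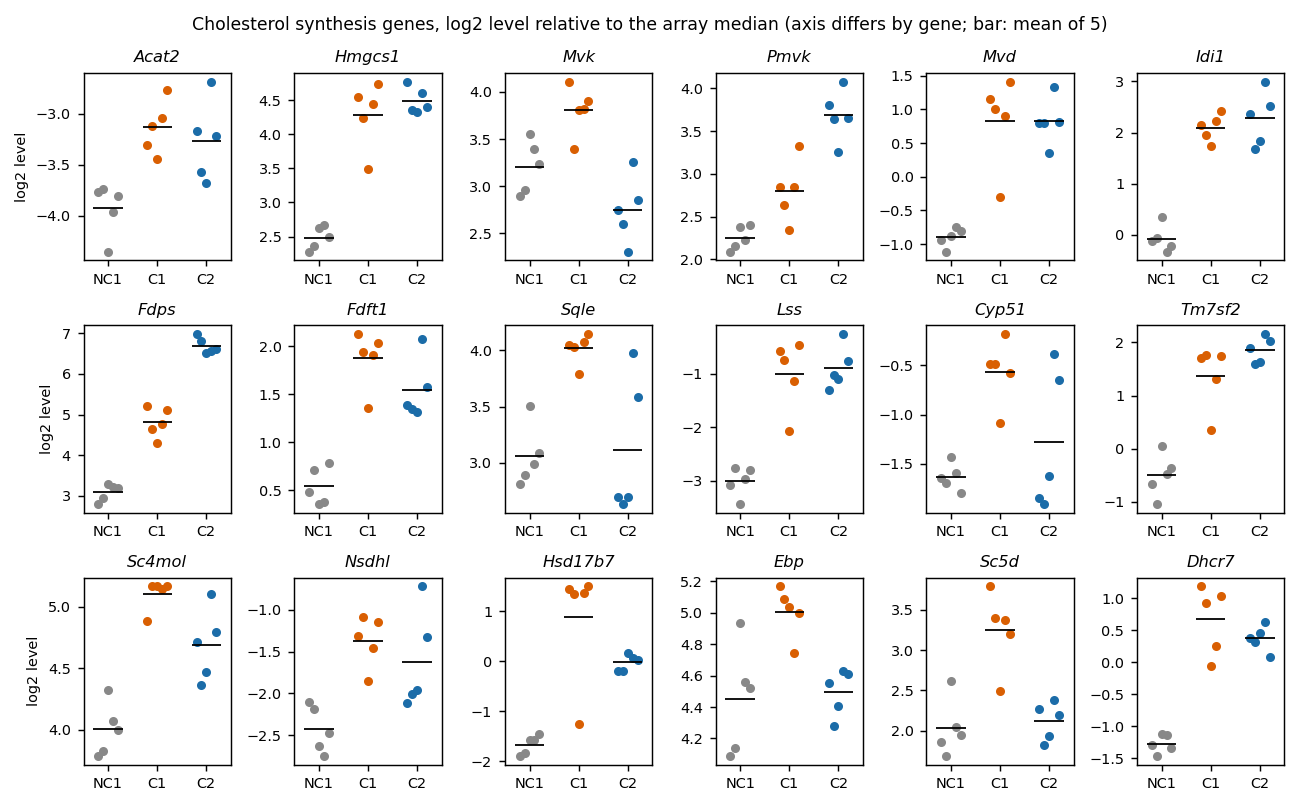
Level of the 18 synthesis genes on each array (log2 intensity relative to the array median, vertical axis differing by gene) at NC1, C1 and C2. Points are the 5 arrays of a stage in replicate order and bars are their means. C1 points lie above all NC1 points in 14 of 18 panels, and C1 replicate 3, the middle C1 point, is the lowest C1 point of Hsd17b7 at -1.25.

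In the mevalonate part, Hmgcs1 encodes the synthase that makes HMG-CoA. Its level was 2.28, 2.37, 2.63, 2.67 and 2.49 in NC1 replicates 1 to 5. It was 4.55, 4.23, 3.48, 4.44 and 4.73 at C1, and 4.77, 4.36, 4.33, 4.60 and 4.40 at C2. All C1 and C2 arrays were above all NC1 arrays, and C1 and C2 overlapped. The log2 difference between C1 and NC1 was 1.80 ± 0.19 (SE, n = 5 against 5), or 3.49-fold, with an adjusted p of 1.23e-05 in limma. Mvd, which decarboxylates mevalonate diphosphate, had levels from -1.12 to -0.74 at NC1 and from -0.30 to 1.41 at C1, where replicate 3 was the lowest. It was 3.31-fold higher at C1 (log2 1.73 ± 0.25, adjusted p 0.000395).

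Idi1, the isomerase that provides both isoprenoid building blocks, was at -0.12, -0.07, 0.35, -0.33 and -0.22 on the NC1 arrays. The C1 arrays gave 2.15, 1.95, 1.74, 2.22 and 2.43, and the C2 arrays 2.37, 1.67, 1.83, 2.99 and 2.53. The lowest C1 or C2 value was above the highest NC1 value by more than the range of the NC1 arrays. Idi1 was 4.52-fold higher at C1 than at NC1 (log2 2.18 ± 0.22, adjusted p 8.71e-06). Fdps, which makes farnesyl diphosphate, the branch point to sterols and other isoprenoids, was at 2.80, 2.95, 3.29, 3.22 and 3.19 at NC1. Its C1 values were 5.22, 4.65, 4.29, 4.78 and 5.11, and its C2 values were 6.98, 6.81, 6.51, 6.56 and 6.61. The arrays of the 3 stages did not overlap for Fdps. The C1 arrays were 3.29-fold above NC1 (log2 1.72 ± 0.16, adjusted p 4.79e-06).

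The other 3 genes of the mevalonate part had smaller differences that were not called. Acat2, a thiolase that condenses acetyl-CoA, differed by 0.79 (95% interval 0.41 to 1.18, adjusted p 0.0155), with all C1 arrays above NC1. Mevalonate kinase, Mvk, differed by 0.60 (0.23 to 0.98, adjusted p 0.0646), and phosphomevalonate kinase, Pmvk, by 0.55 (0.19 to 0.91, adjusted p 0.0753). The intervals of all 3 lay above 0, but none passed the adjustment over all probes.

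In the sterol part, Fdft1, the squalene synthase, was 2.52-fold higher at C1 (log2 1.34 ± 0.17, adjusted p 8.9e-05), from 0.54 ± 0.19 (SD, n = 5) at NC1 to 1.87 ± 0.30. Lss, which closes the ring system into lanosterol, gave -3.08, -2.76, -3.43, -2.97 and -2.79 at NC1. At C1 its values were -0.58, -0.75, -2.07, -1.14 and -0.46, and at C2 -1.30, -1.02, -1.10, -0.26 and -0.77. C1 replicate 3 was the lowest C1 array and still above every NC1 array. The change of Lss was 4.02-fold (log2 2.01 ± 0.27, adjusted p 0.000174).

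Hsd17b7, a reductase of the complex that removes methyl groups from the sterol ring, had the largest difference among the 32 genes. Its NC1 arrays gave -1.90, -1.82, -1.58, -1.57 and -1.46. Its C1 arrays gave 1.45, 1.34, -1.25, 1.37 and 1.50, and its C2 arrays -0.19, -0.19, 0.17, 0.07 and 0.03. Of the C1 arrays 4 lay close together, and replicate 3 lay near the NC1 level. The difference was 2.55 ± 0.39 (5.84-fold, adjusted p 0.00064), and 3.08 without C1 replicate 3. The second Hsd17b7 probe changed alike, by 2.51 (adjusted p 0.000681).

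Dhcr7, a last-step reductase that yields cholesterol, was at -1.29, -1.47, -1.12, -1.14 and -1.35 at NC1. It reached 1.19, 0.93, -0.05, 0.25 and 1.04 at C1, and was at 0.38, 0.31, 0.45, 0.62 and 0.08 at C2. All adult arrays were above all juvenile arrays. The change was 3.84-fold (log2 1.94 ± 0.20, adjusted p 1.23e-05). Tm7sf2, a sterol reductase acting after lanosterol demethylation, changed by 1.88 on the log2 scale (adjusted p 0.000199) and by 1.85 on its second probe. Sc4mol, the sterol methyl oxidase, changed by 1.11 (adjusted p 0.000109), with C1 arrays from 4.89 to 5.17 against 3.78 to 4.33 at NC1. Sc5d, the desaturase of the sterol ring, changed by 1.23 (adjusted p 0.00191), but its C1 range of 2.49 to 3.80 overlapped the NC1 range of 1.68 to 2.62, and with the authors' table its adjusted p was 0.0424.

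The 4 sterol genes not called between NC1 and C1 were Sqle, Cyp51, Nsdhl and Ebp. Sqle, the squalene epoxidase, differed by 0.96 (adjusted p 0.0197). Cyp51, the lanosterol demethylase, differed by 1.07 (adjusted p 0.0222). Ebp, a sterol isomerase, differed by 0.56 (adjusted p 0.0363). Nsdhl, a dehydrogenase of the methyl-removing complex, differed by 1.05 (adjusted p 0.0143) on the probe with the higher mean and by 1.30 (adjusted p 0.000235) on the other, which was called. For Sqle, Cyp51 and both Nsdhl probes the C1 and NC1 arrays did not overlap, while for Ebp they did.

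C1 replicate 3 stood apart in the synthesis genes. The mean level of each gene over all arrays was subtracted, and the median over the 18 genes was taken on each array. This array had a median of 0.01, against 0.56 to 0.76 on the other C1 arrays and -0.94 to -0.65 at NC1. It was also the C1 array with the lowest summed luteinizing markers, 4.39 against 5.63 to 6.37 on the others, while its 10 oocyte markers summed to 4.93, within the range of the C1 arrays. The part of these cell types in the synthesis genes was not tested. Without this array 12 of 18 synthesis genes were called higher at C1 and the median difference was 1.44.

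**Figure D2:**
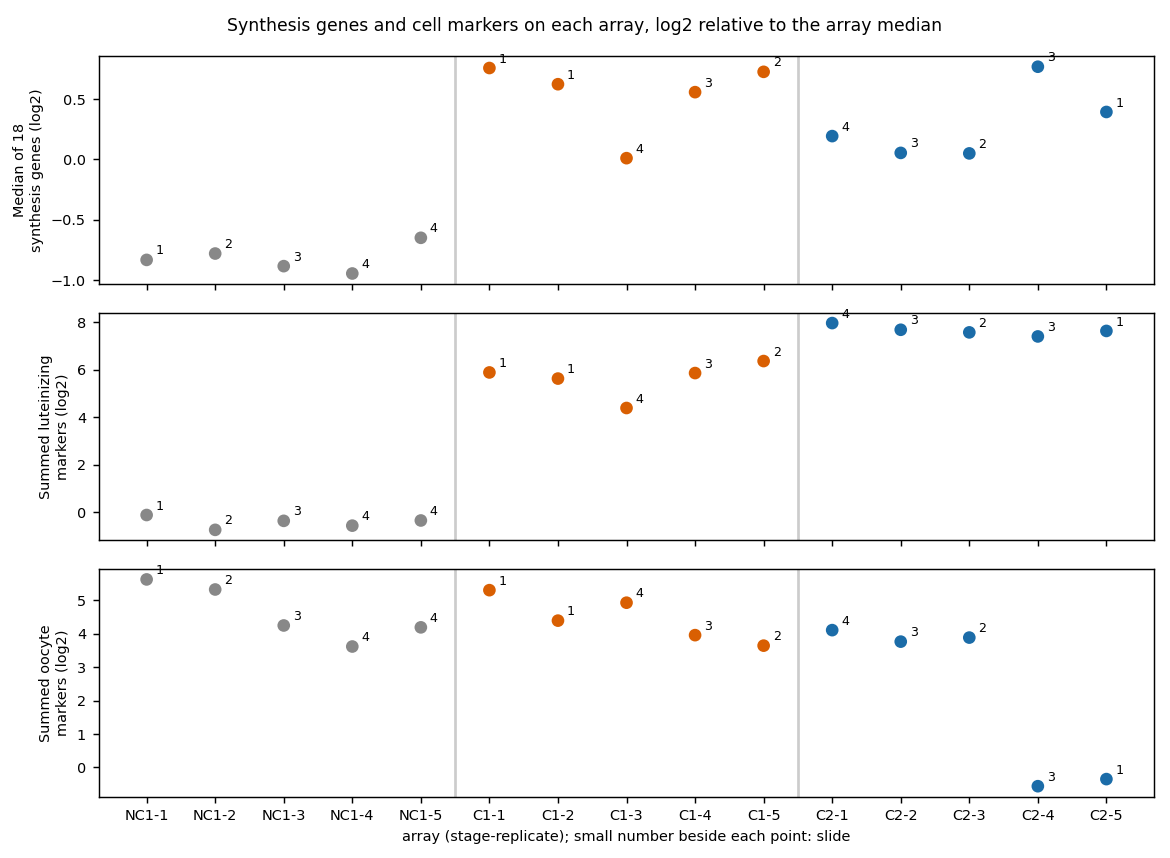
Each of the 15 arrays is on the horizontal axis. The top shows the median over the 18 synthesis genes after the mean log2 level of each gene over all arrays was subtracted. Below are the summed log2 levels of 6 luteinizing or mural granulosa cell markers (middle) and of 10 oocyte markers (bottom), relative to the array median. Small numbers give the slide, and grey lines separate the stages. C1 replicate 3 has the lowest C1 value at the top (0.01) and in the middle (4.39), and C2 replicates 4 and 5 lie at -0.56 and -0.35 at the bottom.

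Among the genes of regulation, uptake, transport and export, Scarb1 was called higher and Mylip lower at C1 than at NC1. These were 1 of 14 tested genes in each direction, where 1.75% of all valid probes were called higher and 0.768% lower, and the median log2 difference of the 14 was 0.30. The arrays of 5 lay wholly higher at C1 and those of 2 wholly lower, against the 5.98% of all probes. Scarb1 is the receptor for HDL cholesterol. Its values were 2.52, 2.34, 3.23, 3.44 and 2.63 at NC1, 4.54, 4.22, 3.72, 4.38 and 4.47 at C1 and 4.92, 4.98, 4.98, 4.44 and 4.50 at C2. All NC1 arrays lay below all C1 and C2 arrays. Scarb1 was 2.70-fold higher at C1 than at NC1 (log2 1.43 ± 0.21, adjusted p 0.000473), and 3.22-fold on its second probe (adjusted p 3.4e-05). Within slides 1 to 4 the difference was 1.86, 2.14, 1.15 and 0.69.

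Mylip is a ubiquitin ligase that marks lipoprotein receptors for degradation. Its NC1 values were -1.13, -0.73, -0.65, -0.67 and -0.55. Its C1 values were -1.88, -1.58, -2.26, -1.18 and -1.63, and its C2 values -1.81, -2.11, -2.08, -1.47 and -1.40. The highest C1 array was below the lowest NC1 array, and C1 and C2 overlapped. Mylip was 1.95-fold lower at C1 (log2 -0.96 ± 0.19, adjusted p 0.00589). That call was lost in 16 of 33 alternatives, among them the slide as a block (adjusted p 0.0162) and the omission of any 1 of 8 arrays, with the direction kept. The 8 arrays were NC1 replicates 2 to 5 and C1 replicates 1, 2, 3 and 5, and the highest adjusted p without 1 array was 0.0204.

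None of the 5 regulators was called between NC1 and C1. Srebf2, the transcription factor that mainly drives cholesterol synthesis genes, was at -1.76, -2.15, -1.42, -1.46 and -1.56 at NC1, -1.28, -1.08, -1.28, -0.68 and -0.73 at C1 and -0.45, -0.63, -0.74, -0.30 and -0.42 at C2. C1 arrays lay above NC1 arrays without overlap, by 0.66 ± 0.16 (adjusted p 0.0198). Srebf1, which mainly drives fatty acid genes, differed by 0.32 (-0.14 to 0.77), Insig1 by 0.61 (0.17 to 1.06), Insig2 by 0.12 (-0.14 to 0.37) and the escort Scap by 0.29 (0.01 to 0.57), with 95% intervals in parentheses. Of the transport genes, Stard4, a soluble sterol carrier, had the largest difference, 0.97 (adjusted p 0.0155), with no overlap of the arrays. Npc2, which hands cholesterol to Npc1 for its exit from lysosomes, differed by 0.67 (adjusted p 0.0237), and Soat1, which esterifies cholesterol for storage, by 0.56 (adjusted p 0.134). Npc1, the late endosomal carrier Stard3 and the lysosomal lipase Lipa differed by 0.04, 0.09 and 0.15, with adjusted p of 0.943, 0.713 and 0.823. The exporter Abca1 differed by -0.47 (adjusted p 0.151), and its C1 arrays all lay below its NC1 arrays.

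**Figure D3:**
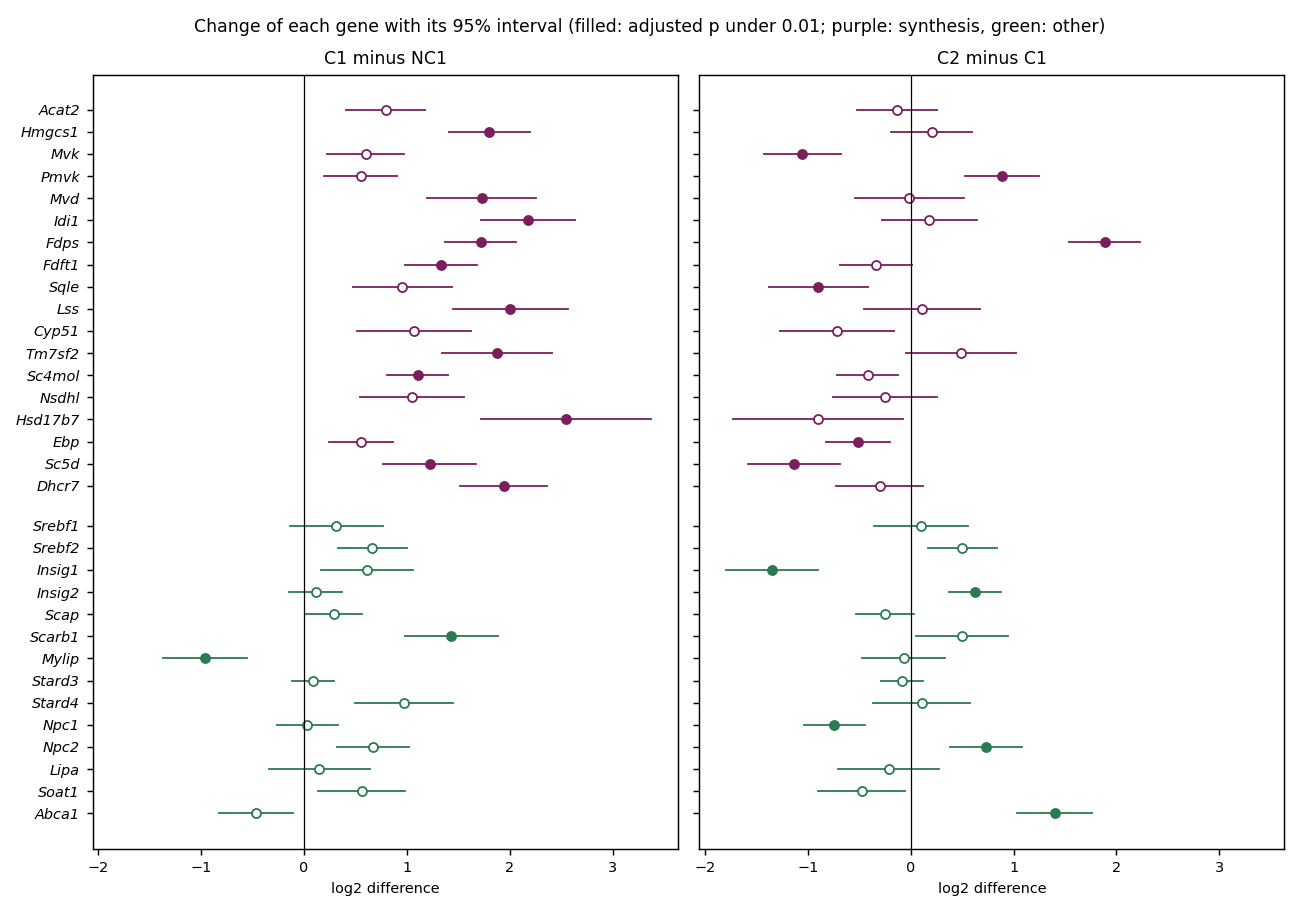
Log2 difference of each of the 32 tested genes (point) with its 95% interval (line), for C1 minus NC1 on the left and C2 minus C1 on the right. Purple marks the 18 synthesis genes, green the other 14, and filled points passed an adjusted p of 0.01. On the left all 18 synthesis genes lie above 0, with a median of 1.28, whereas on the right 6 lie above and 12 below.

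From C1 to C2 the synthesis genes no longer moved in 1 direction. Of 18, 2 were called higher and 4 lower, where 25.4% of all valid probes were called higher and 22.2% lower. The arrays of 1 gene lay wholly higher at C2 and those of 3 wholly lower, against 43.9% of all probes without overlap. The median difference was -0.28, and turned to 0.03 when arrays were scaled by the median over all gene probes or taken from the authors' table, scalings that moved the median of all valid probes from 0.02 to 0.33 (spike-in scaling moved it to -0.13). Under those scalings no synthesis gene was called lower. With the slide as a block 2 were called higher and 3 lower, and within slides 1 to 4 the median was -0.20, -0.71, -0.03 and 0.35. The value of slide 4 again rests on C1 replicate 3 as the only C1 array.

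Fdps rose again. Its C2 arrays lay 3.69-fold above C1 (log2 1.89 ± 0.16, adjusted p 5.24e-08), and within slides the difference was 1.67, 1.41, 1.90 and 2.69. Pmvk, at 2.85, 2.64, 2.34, 2.85 and 3.32 on the C1 arrays and 3.80, 3.64, 3.26, 4.08 and 3.66 on the C2 arrays, was 1.85-fold higher at C2 (log2 0.89 ± 0.17, adjusted p 0.000248). The ranges overlapped, as C1 replicate 5 was above C2 replicate 3. The second Pmvk probe was also called, by 0.86 (adjusted p 0.000448). With spike-in scaling the call of the leading Pmvk probe was lost.

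The 4 genes called lower at C2 were Mvk, Sqle, Ebp and Sc5d. Mvk was at 4.11, 3.40, 3.80, 3.82 and 3.90 at C1 and at 2.74, 2.60, 2.31, 3.25 and 2.86 at C2, and the arrays did not overlap. It was 2.08-fold lower (log2 -1.05 ± 0.18, adjusted p 7.98e-05), and its second probe 2.33-fold lower (adjusted p 2.58e-05). Sc5d fell from 3.26 ± 0.48 (SD, n = 5) to 2.12 ± 0.23, and was 2.20-fold lower (log2 -1.13 ± 0.21, adjusted p 0.000228). Sc5d at C2 was thereby close to its NC1 mean of 2.03 ± 0.35, with a difference between C2 and NC1 of 0.09 (-0.36 to 0.54). Ebp was 1.43-fold lower (log2 -0.51, adjusted p 0.00674), a call that was lost in 18 of 33 alternatives. Among them were the omission of any 1 of C1 replicates 1, 2, 3 and 5 and C2 replicates 1 to 3, where the adjusted p rose to at most 0.021.

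Sqle gave 4.05, 4.02, 3.79, 4.07 and 4.14 at C1. At C2 it gave 2.70, 2.64, 2.70, 3.98 and 3.59, so that replicates 1 to 3 lay below all C1 arrays and below replicates 4 and 5. It was 1.86-fold lower at C2 (log2 -0.90 ± 0.23, adjusted p 0.00293), and the adjusted p was 0.0102 without C2 replicate 2. Cyp51 was split between the same arrays, with -0.49, -0.48, -1.08, -0.18 and -0.58 at C1 and -1.84, -1.91, -1.62, -0.38 and -0.65 at C2. Its difference was -0.72 ± 0.26 and was not called (adjusted p 0.026). The same arrays differed in the oocyte markers, of which 8 of 10 were well above background on C2 replicates 1 to 3 and 3 of 10 on replicates 4 and 5, and the part of oocyte RNA in the result was not tested.

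In an analysis added after the data were seen, these C2 arrays were fitted separately. With C2 replicates 4 and 5 only, 2 synthesis genes were called higher and none lower, and the median difference from C1 was 0.11. Sqle then differed by -0.23 (adjusted p 0.32), Mvk by -0.75 (adjusted p 0.0105) and Sc5d by -0.97 (adjusted p 0.0152). With C2 replicates 1 to 3 only, 2 were called higher and 6 lower, and the median was -0.43. Fdps was called higher in both, by 1.77 and 1.96. These fits enter C1 against NC1 only through the spread, and 14 and 15 synthesis genes were called higher there, where the analysis of all arrays called 11.

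The other 12 synthesis genes were not called between C1 and C2. Hsd17b7 had the widest interval, with a difference of -0.90 (-1.73 to -0.07, adjusted p 0.0579), and without C1 replicate 3 it was called lower by -1.44 (adjusted p 5.97e-08). Sc4mol differed by -0.42 (adjusted p 0.0169), Fdft1 by -0.33 (adjusted p 0.0953) and Tm7sf2 by 0.49 (adjusted p 0.11). For Hmgcs1, Mvd, Idi1 and Lss the differences were 0.20, -0.01, 0.18 and 0.11, with 95% intervals of -0.19 to 0.60, -0.54 to 0.52, -0.28 to 0.64 and -0.45 to 0.67. Dhcr7, Nsdhl and Acat2 differed by -0.30, -0.25 and -0.13. Nsdhl also split at C2, with -2.11, -2.01 and -1.96 on replicates 1 to 3 and -0.72 and -1.32 on replicates 4 and 5. With C2 replicates 1 to 3 only, Nsdhl was called lower by -0.66 (adjusted p 0.00781). With C2 replicates 4 and 5 only, it differed by 0.35 (adjusted p 0.246).

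Among the other 14 genes, 3 were called higher at C2 than at C1 and 2 lower, where 25.4% of all valid probes were called higher and 22.2% lower, so these counts were no higher than the shares over the array. The genes were Insig2, Npc2 and Abca1 (higher) and Insig1 and Npc1 (lower). Insig1, which holds the SREBP complex back and is itself an SREBP target, was at -2.15, -2.23, -1.75, -1.94 and -1.69 at NC1. It was at -1.54, -1.45, -1.65, -0.79 and -1.27 at C1 and at -2.69, -3.07, -3.24, -2.14 and -2.32 at C2. All C2 arrays were below all C1 arrays, while C2 and NC1 overlapped. Insig1 was 2.55-fold lower at C2 than at C1 (log2 -1.35 ± 0.21, adjusted p 3.68e-05), and with C2 replicates 4 and 5 only by -0.89 (adjusted p 0.00448).

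Insig2, its homologue, was at 0.39, 1.10, 0.70, 0.59 and 0.71 at C1 and at 1.24, 1.18, 1.37, 1.45 and 1.38 at C2, without overlap. It was 1.54-fold higher at C2 (log2 0.63 ± 0.12, adjusted p 0.000284). Its second probe, with a difference of 0.52 ± 0.26, was not called (adjusted p 0.0992), and neither was the mean of both probes. The Insig2 call was also lost with spike-in scaling. Srebf2 differed by 0.50 ± 0.16 (adjusted p 0.0126), Srebf1 by 0.10 and Scap by -0.25, and none was called.

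Npc1, the lysosomal membrane protein through which cholesterol leaves, was at -1.40, -1.06, -1.43, -1.31 and -1.61 at C1 and at -2.32, -2.22, -2.34, -1.84 and -1.80 at C2. Npc2, its soluble partner, was at 3.18, 3.01, 2.40, 2.84 and 2.98 at C1 and at 3.74, 3.85, 3.79, 3.43 and 3.26 at C2. Neither gene had overlapping arrays. Npc1 was 1.67-fold lower (log2 -0.74 ± 0.14, adjusted p 0.00022) and Npc2 1.66-fold higher (log2 0.73 ± 0.17, adjusted p 0.00117). With C2 replicates 4 and 5 only neither was called, at -0.46 and 0.46 (adjusted p 0.0322 and 0.0908), and with the authors' table Npc1 was not called (-0.43, adjusted p 0.07). The Npc2 call was also lost with spike-in scaling.

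Abca1, which exports cholesterol to apolipoprotein A-I, had the largest rise among these genes. Its NC1 values were 1.06, 1.09, 1.57, 0.88 and 1.14. Its C1 values were 0.24, 0.86, 0.63, 0.84 and 0.84, and its C2 values 1.59, 1.91, 2.25, 2.45 and 2.20. The C2 arrays lay above all arrays of both prophase I stages. Abca1 was 2.64-fold higher at C2 than at C1 (log2 1.40 ± 0.17, adjusted p 2.65e-06), with 1.65, 1.40, 1.34 and 0.96 within slides 1 to 4 and 1.64 with C2 replicates 4 and 5 only. The probe of Abcg1, the exporter to HDL, was well above background in 2 C2 arrays, and no fold is given.

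Uptake and the rest of transport were not called between C1 and C2 on their leading probes. Scarb1 differed by 0.50 (adjusted p 0.0545), while its second probe was called higher by 0.76 (adjusted p 0.00257). Mylip differed by -0.07 (-0.47 to 0.34). Soat1, Lipa, Stard3 and Stard4 differed by -0.48, -0.22, -0.08 and 0.11. Second probes of Srebf2 and Stard4 were well above background in 5 C2 arrays but in 3 and 2 NC1 arrays, and were not tested.

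**Figure D4:**
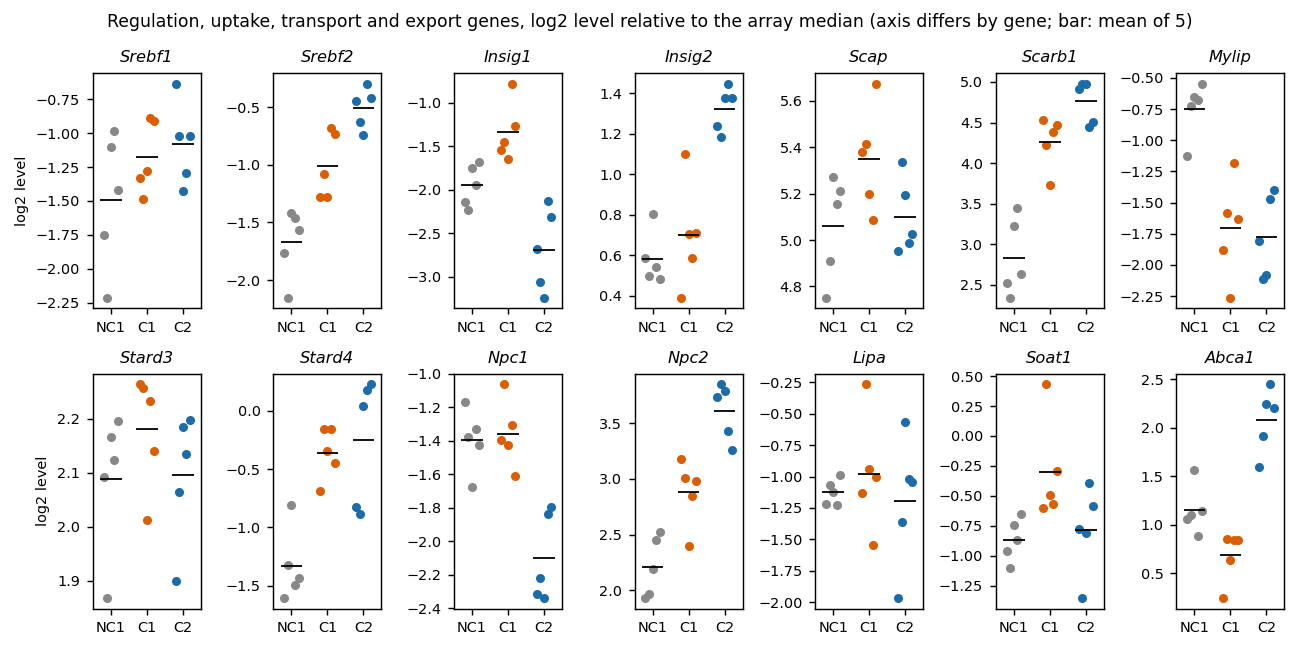
Level of the 14 tested genes of regulation, uptake, transport and export on each array (log2 intensity relative to the array median, vertical axis differing by gene) at NC1, C1 and C2. Points are the 5 arrays of a stage in replicate order and bars are their means. C2 points of Abca1 lie above all C1 points and those of Insig1 below all C1 points, and Mylip has all C1 points below all NC1 points.

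Over the whole course, C2 against NC1, 13 of 18 synthesis genes were called higher and none lower, with a median difference of 1.22, and 12 had arrays that did not overlap. Of all valid probes, 26.5% were called higher, 24.9% lower and 48.9% had no overlap. This comparison shares its arrays with both others, so its values stand beside them and add no independent support. Fdps had the largest difference, 3.60 ± 0.16 (12.2-fold, adjusted p 1.9e-11), followed by Idi1 and Tm7sf2 at 2.36 and 2.36, Lss at 2.12 and Hmgcs1 at 2.01. The 5 not called were Mvk, Sqle, Cyp51, Ebp and Sc5d, with differences of -0.45, 0.06, 0.35, 0.05 and 0.09. Some of these values turned on the C2 arrays. With C2 replicates 4 and 5 only, Sqle and Cyp51 were called higher, by 0.72 and 1.12 (adjusted p 0.00478 and 0.00035). With C2 replicates 1 to 3 only they differed by -0.38 and -0.16 (adjusted p 0.0379 and 0.441), Mvk was called lower by -0.66 (adjusted p 0.0068), and 10 synthesis genes were called higher. Among the called genes, Acat2 differed by 0.66 (adjusted p 0.00482) and Nsdhl by 0.80 (adjusted p 0.00798), and their calls were lost in 13 and 16 of 33 alternatives. Both were lost with the slide as a block (adjusted p 0.0139 and 0.013) and with C2 replicates 1 to 3 only, where the differences were 0.45 and 0.40 (adjusted p 0.0466 and 0.0801). The Acat2 call was also lost without any 1 of NC1 replicates 3 and 4 and C2 replicates 1, 4 and 5 (adjusted p at most 0.0159), and the Nsdhl call without any 1 of NC1 replicates 3 to 5, C1 replicate 1 and C2 replicates 4 and 5 (at most 0.0228).

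Of the other 14 genes, 6 were called higher at C2 than at NC1 and 3 lower, against the same 26.5% and 24.9% of all valid probes. The higher ones were Srebf2 (1.17), Insig2 (0.74), Scarb1 (1.93), Stard4 (1.08), Npc2 (1.40) and Abca1 (0.93), in log2 units with adjusted p of at most 0.000501. Of these, the Insig2 call was lost with spike-in scaling. The lower ones were Mylip (-1.03, adjusted p 0.000187), Npc1 (-0.71, adjusted p 0.000307) and Insig1 (-0.74, adjusted p 0.00599), and the calls of all 3 were lost with the authors' table (adjusted p 0.0167, 0.0369 and 0.12). All 3 were also lost with C2 replicates 4 and 5 only, at -0.69, -0.42 and -0.27 (adjusted p 0.0247, 0.0423 and 0.315). The Insig1 call was lost in 14 of 33 alternatives, among them the omission of any 1 of NC1 replicates 3 to 5 and C2 replicates 1 to 3, where the adjusted p was at most 0.0195. The F-test over the 3 stages called 27 of the 32 genes, which were all 18 synthesis genes and 9 of the 14 others, against 51.6% of all valid probes. Srebf1, Scap, Stard3, Lipa and Soat1 were not called, with adjusted p of 0.217, 0.127, 0.632, 0.693 and 0.0414.

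Each successive pattern was counted over the 18 synthesis genes. A rise at C1 with no call at C2 was found for 9 genes, which were Hmgcs1, Mvd, Idi1, Fdft1, Lss, Tm7sf2, Sc4mol, Hsd17b7 and Dhcr7, and for 0.548% of all valid probes. Fdps was called higher at both steps, like 0.941% of all probes, and Sc5d higher and then lower, like 0.266%. Mvk, Sqle and Ebp were called lower only at the second step (21.6% of all probes), Pmvk higher only at the second step (24.3%), and Acat2, Cyp51 and Nsdhl at neither (51.6%). Both successive comparisons use the C1 arrays, so a high or low C1 array moves them in opposite directions.

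Genes around the pathway were counted in lists chosen by function, and each count is to be read beside the shares over all valid probes, 1.75% higher and 0.768% lower at C1 against NC1, and 25.4% higher and 22.2% lower at C2 against C1. Of 13 fatty acid genes known as SREBP targets, 6 were called higher at C1 than at NC1 and none lower, led by Scd1, a fatty acid desaturase (log2 2.83, adjusted p 1.05e-05), and Fads2, another desaturase (1.79, adjusted p 0.00104). At C2 against C1, 4 of the 13 were called higher and 3 lower, led by Scd1 (1.78) and malic enzyme, Me1 (1.53), both higher. Of 6 tested genes that use cholesterol for steroid hormones, 4 were called higher at C1, led by Cyp11a1, the side-chain cleavage enzyme (5.46, adjusted p 3.24e-09), and its electron donor Fdx1 (2.70, adjusted p 2.12e-10), and 3 rose further at C2, led by Tspo, a mitochondrial membrane protein (2.08), and Fdxr, the reductase that feeds Fdx1 (1.32). The carrier Star was well above background in 2 NC1, 5 C1 and 5 C2 arrays and was not tested.

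The non-sterol isoprenoid branch, which starts from the product of Fdps, had none of 8 tested genes called at C1 against NC1, with a median difference of 0.02. At C2 against C1, 1 was called higher and 3 lower, led by Pdss1 (-1.05) and Coq2 (-0.82), enzymes of ubiquinone synthesis. Of 7 tested genes for SREBP cleavage and protein degradation none was called at C1. At C2, 2 were called higher and 2 lower, led by the SREBP protease Mbtps1 (-0.80) and the ubiquitin ligase Rnf139 (-0.72). Of 8 liver X receptor and oxysterol genes 3 were tested, none was called at C1, and Nr1h2, which encodes a liver X receptor, and its partner Rxrb were called higher at C2 (0.81 and 0.64). Of the 5 not tested, Cyp7b1, an oxysterol hydroxylase, was well above background on 5 NC1, 5 C1 and no C2 arrays, and was at least 10.5-fold lower at C2 than at C1. The bound sets the C1 mean against the lowest well-detected signal of each C2 array, or the probe's own where that was higher.

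Of 6 tested lipoprotein receptors and other uptake genes, none was called at C1 against NC1, and at C2 against C1 1 was called higher and 5 lower. The VLDL receptor, Vldlr, was higher by 2.17 (adjusted p 1.44e-08), whereas the scavenger receptor Cd36 differed by -1.60 (adjusted p 9.57e-05). The seventh gene of that list, Olr1, a receptor for oxidized LDL, was not tested, since it was well above background on 5 C2 arrays and on no NC1 or C1 array, and it was at least 16.3-fold higher at C2 than at C1. Cyp7b1 and Olr1 are named after their values were seen. Of 12 tested sterol transport proteins, 1 was called at C1, Stard5, a sterol carrier (1.31, adjusted p 0.000567). At C2, 3 were called higher, led by Scp2, the sterol carrier protein of peroxisomes (2.60, adjusted p 6.29e-11), and 2 lower, led by Osbpl5, a lipid transfer protein (-1.77, adjusted p 1.09e-08).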

How the data were processed

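Cumulus cell RNA from 15 pools was labelled with Cy3 and hybridized to 15 one-colour Agilent arrays of 39429 gene probes. The authors deposited linear spot intensity values, background-subtracted but not scaled between arrays, from Feature Extraction (10.7.1.1 per the file headers, 10.5.1.1 per the submitters' processing notes), and a table of 20855 probes whose log2 values equal the log2 intensity plus a constant per array (SD of the difference at most 0.00742). That table holds no further normalization and was used as an alternative.

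Unflagged spots of a probe were averaged, log2 was taken and the median of the 17323 valid probes of each array was subtracted. Following the methods of the study, a valid probe had to be well above background on 80% or more of the arrays of every stage, and 20 values were missing. No spot was saturated. From 18366 to 24493 gene probes were well above background on an array. Between arrays of a stage the SD of their difference was at least 0.242. How alike repeated arrays of 1 sample would be was not measured. Each array was a separate pool of mice per the methods.

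Stages were compared in limma 3.58.1 (R 4.3.3) with 1 model over the 15 arrays and the Benjamini-Hochberg adjustment at 0.01 over all valid probes, two-sided. Intervals are 95% and unadjusted. All 33 member genes are named, and from each related list the 2 largest called changes of each successive comparison. Members, lists, motifs and tests were chosen with earlier results of these data known. Alternatives were other scalings, normexp on the median signal, other filters, the unmoderated test of the methods, the slide or replicate number as a block, other thresholds, probe means and the omission of each array. The number of arrays and the signal over background limit the precision.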

Additional observations from a re-analysis of the deposited data

Results flagged for a closer look

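Among the levels of the 32 tested genes in the 3 stages, 96 groups of 5 arrays were examined for a single array far from the other 4, by Dixon's ratio of the gap to the whole range with a critical value of 0.71. Chance flags about 1 in 20 such groups, and 3 of 96 were found, all at C1. Hsd17b7 was at -1.25 on C1 replicate 3, where the other C1 arrays ranged from 1.34 to 1.50 (ratio 0.94). Fdft1 was at 1.36 on the same array, against 1.91 to 2.13 (ratio 0.72). Sc4mol was at 4.89 on C1 replicate 1, against 5.14 to 5.17 (ratio 0.915).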

How the results depend on the processing

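In all, 33 alternatives were run for 96 member changes. Of 3168 values, 2985 kept the sign and call of the main analysis, 120 lost a call, 63 gained one, and no called value changed sign. The 13 members called for C1 against NC1 became 21 at an adjusted p of 0.05. The 11 called for C2 against C1 became 7 with the median over all gene probes, with spike-in scaling and with the authors' deposited table, and 5 with a minimum of 2-fold and with C2 arrays 4 and 5 only. The 4 synthesis genes lower at C2 than at C1 became 0 with the median over all gene probes, with the authors' table and with C2 arrays 4 and 5 only, and 2 without a filter on dim probes and with a minimum of 2-fold. Leaving out each array gave 12 to 17 members for C1 against NC1, 9 to 13 for C2 against C1, 19 to 22 for C2 against NC1 and 25 to 27 by the F-test. It gave 11 to 15 synthesis genes higher at C1 than at NC1, 11 to 13 higher at C2 than at NC1 and 2 to 6 lower at C2 than at C1, the lowest without C2 replicate 2. The 2 analyses of part of the C2 arrays were chosen after seeing the data.

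Same-numbered arrays had correlations of their deviations between -0.241 and 0.348, and from 0.0557 to 0.348 for NC1 and C1. Differently numbered arrays were not compared in this way, so whether replicate numbers pair the arrays was not tested. With the replicate block, 14 members were called for C1 against NC1, 11 for C2 against C1, 21 for C2 against NC1 and 26 by the F-test, among them 12 synthesis genes higher at C1, 3 lower at C2 than at C1 and 12 higher at C2 than at NC1. Dim probes such as Abcg1 had too little signal over background to be tested.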
